A study of Mus musculus with 6 samples.

Results

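Glutamate and GABA receptor subunits are the building blocks of the channels and G protein-coupled receptors through which neurons sense their main excitatory and inhibitory transmitters. A list of 31 such genes was followed on mouse arrays, and every non-control probe set annotated with exactly 1 gene symbol, that symbol being in the list, was taken as a member. This gave 67 probe sets of 29 genes, out of 45037 non-control probe sets. Grin1 and Gabbr2 had no such probe set and were not analysed here.

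The arrays carried RNA from E13.5 mouse embryos, from tissue called ventral forebrain in the design text and ventral telencephalon in the sample labels, of 3 Olig2-/- pools, numbered as replicates 2, 4 and 5, and 3 Olig2+/+ pools, numbered as replicates 1, 4 and 5. Each pool held RNA of 3 brains. Olig2 is a basic helix-loop-helix transcription factor, and the series title places it in the development of the prethalamus and of thalamocortical projections. The sources used here do not give how the Olig2 allele was made, the sex of the embryos or the litters behind each pool. The p-values below measure the spread between these 6 pools. Values are log2 expression values as deposited, given for knockout replicates 2, 4 and 5 and then wild-type replicates 1, 4 and 5, in that order.

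AMPA, kainate and NMDA receptors are cation channels opened by glutamate, and the metabotropic glutamate receptors act through G proteins. GABA-A receptors are chloride channels built from alpha, beta and gamma subunits, and GABA-B receptors are G protein-coupled. In embryonic neurons, whose chloride content is high, GABA often depolarises the cell, and both transmitters act on migrating and differentiating neurons before most synapses have formed.

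The arrays had medians of 3.14 to 3.19 on the log2 scale and a common floor of 2.27, within 0.03 of which 33.2% to 33.7% of values lay. Olig2 read 7.48, 7.53 and 7.76 in the knockout, against 8.20, 8.22 and 8.42 in the wild type, so it was detected in the knockout as well (difference -0.69, SE 0.11, limma adjusted p = 0.511). Whether its probe set falls in the part of the gene changed in this allele was not checked here. Olig1, a related factor, read 8.47, 8.55 and 8.02 in the knockout, against 7.17, 6.48 and 6.30 in the wild type (difference 1.69, SE 0.27, limma adjusted p = 0.511). Of 9 ventral telencephalon markers with a probe set, 8 were above the floor on all arrays (Dlx1, Dlx2, Dlx5, Dlx6, Gsx2, Lhx6, Lhx8 and Isl1). Nkx2-1, which marks the medial ganglionic eminence, was above it on only 1 array. Whether Nkx2-1 was low in the tissue or missed by its probe sets was not tested. Of all 15 pairs of arrays, the closest over the kept probe sets was 1 across the genotypes, knockout replicate 2 with wild-type replicate 4 (Pearson r = 0.994, a description across probe sets). Wild-type replicate 1 stood apart from the rest: it had the lowest weight of the 6 arrays in limma's array weighting (0.346, against 0.784 to 2.26 on the others). Most subunit differences are therefore also given without it. Most marker lists are given over all 6 arrays only.

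Most of the listed subunits were above the floor at this stage. A probe set was counted as above the floor on an array if it exceeded that array's floor by at least 1 on the log2 scale, and a gene if any of its probe sets did so on all 6 arrays. By this rule 23 of the 29 genes were above the floor: all 4 AMPA subunits (Gria1 to Gria4), all 5 kainate subunits (Grik1 to Grik5), Grin2b and Grin3a of the NMDA subunits, the metabotropic receptors Grm2, Grm3, Grm4, Grm5 and Grm7, the GABA-A subunits Gabra2, Gabra3, Gabra4, Gabra5, Gabrb1 and Gabrb2, and the GABA-B subunit Gabbr1. The count was 25 with a margin of 0.5 and 16 with a margin of 2. By the rule with a margin of 1, 10326 of all 18193 annotated genes were above the floor. A gene with more probe sets had more chances to pass.

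The subunits at the floor were mainly those of the NMDA receptor. Grin2a, the NMDA subunit that becomes prominent after birth in rodents, read 2.27 on all 6 arrays, as did Grin2c, known for its expression in the cerebellum. Grin2d had 2 probe sets, at most 2.58 on any array. All 4 probe sets of Gabrg3, a gamma subunit, were at or near the floor, the highest value being 2.75. A value at the floor is a bound of this array and of its probe sets, since Grin2b itself had 2 probe sets at 2.27 and 2.33 on all arrays beside 2 that were above the floor.

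Between these classes lay Gabrg1 and Grm8. Gabrg1, another gamma subunit, was above the floor on 5 arrays and missed the margin on wild-type replicate 5, where it read 3.27. Grm8, a presynaptic metabotropic receptor, exceeded the margin on wild-type replicate 1 alone (3.47, with 2.90 to 3.08 on the other arrays). The single probe sets of Grm2 and Grm4 passed by level, but each read one and the same value, to 6 decimals, on 3 of the 6 arrays (3.70 for Grm2 and 4.42 for Grm4). Over all kept probe sets 5.48% had such a value shared by 3 or more arrays. Without such probe sets, a choice made after seeing the data, 21 subunit genes were above the floor.

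**Figure D1:**
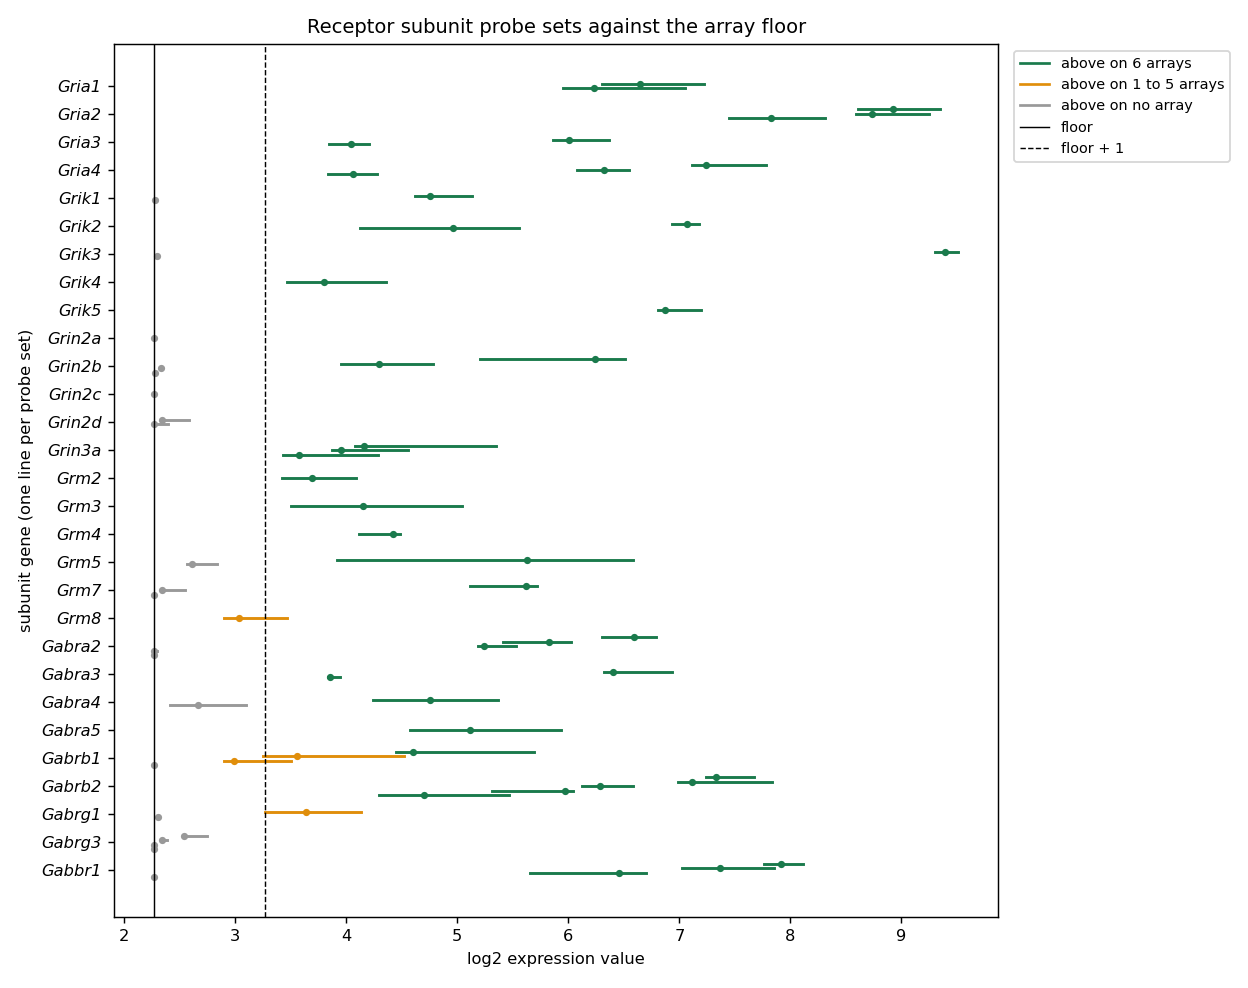
Log2 expression values of all 67 receptor subunit probe sets, 1 line per probe set from its lowest to its highest array with a dot at the median of the 6 arrays. The solid vertical line is the floor at 2.27 and the dashed one lies 1 above it; Grin2a, Grin2c, Grin2d and Gabrg3 have no line that crosses the dashed one, while 23 genes have at least 1 line wholly to its right.

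No subunit passed the test of the genotype difference. Only probe sets that exceeded the array median on 3 or more of the 6 arrays were tested with limma. This filter kept 44 member probe sets of 24 genes, and each gene was represented by its brightest kept probe set. Grin2a, Grin2c, Grin2d, Gabrg3 and Grm8 had no kept probe set. Of the 24 genes, 0 passed an adjusted p of 0.05 (smallest limma adjusted p = 0.511), where 0% of all 10630 kept genes did, and 0 had an unadjusted p below 0.05, where 7.90% of kept genes did (3.99% higher and 3.91% lower in the knockout). In a bulk sample, fewer cells of a type and less RNA per cell cannot be told apart.

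By sign, 16 of the 24 genes were lower in the knockout and 8 higher, with a median difference of -0.12, against 50.6% lower, 49.4% higher and a median of -0.0015 over all kept genes. The differences ranged from -0.61 (Grm3) to 0.27 (Grik1). The groups did not overlap for 0 genes that were higher and for 1 that was lower (Gabra2), against 8.45% higher and 7.96% lower over all kept genes. Without wild-type replicate 1 the split turned to 15 higher and 9 lower, with a median of 0.03, and 0 genes had an unadjusted limma p below 0.05. Without knockout replicate 2 and wild-type replicate 4, it was 7 higher and 17 lower, with a median of -0.23.

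**Figure D2:**
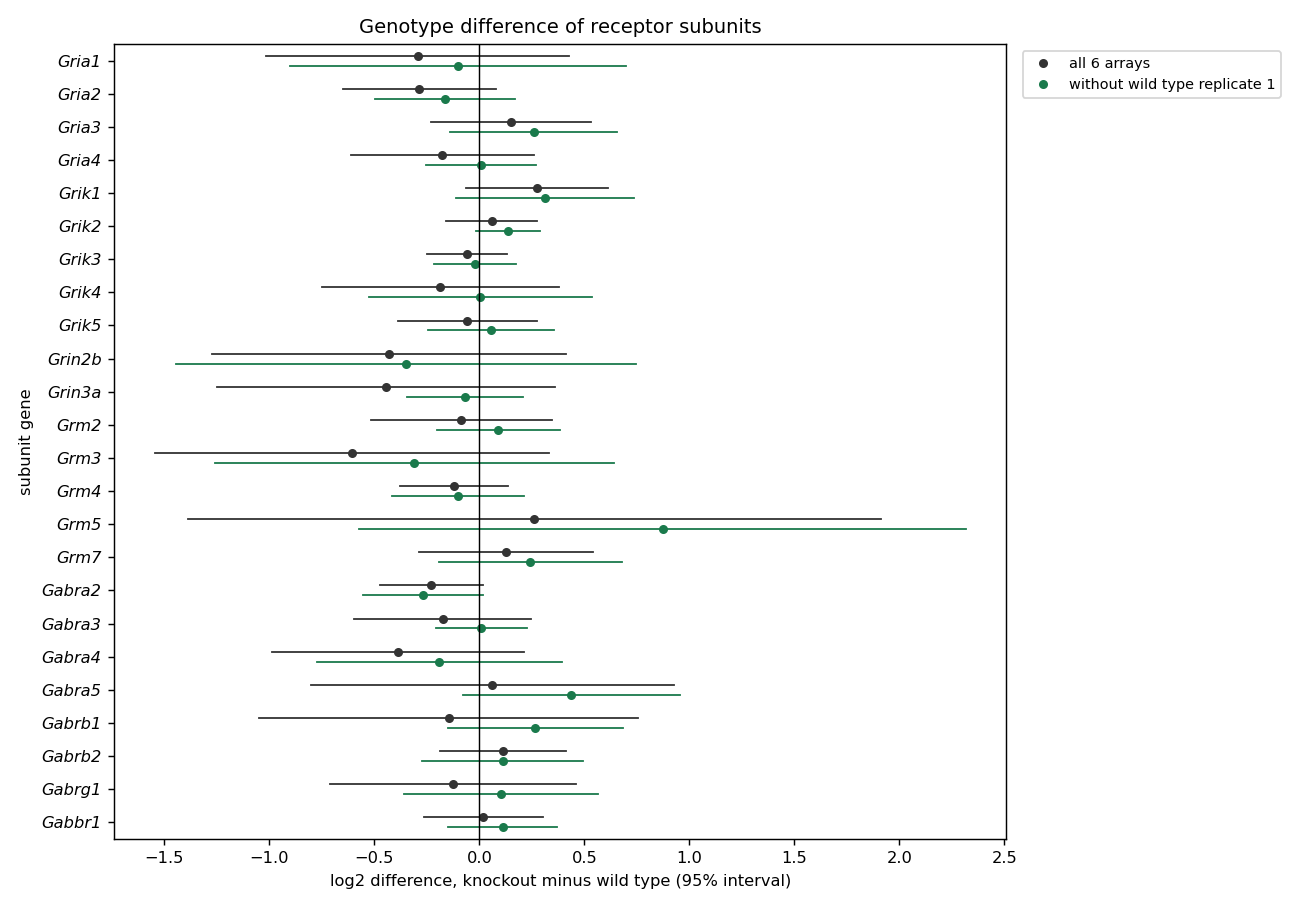
Log2 difference (knockout minus wild type) of the 24 subunit genes with a kept probe set, as points with limma's 95% intervals, over all 6 arrays (dark) and without wild-type replicate 1 (green). All 24 dark intervals include 0; 16 dark points and 9 green points lie left of it.

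The AMPA subunits carry most fast excitatory transmission. Gria2, whose edited form keeps calcium out of the channel, read 8.94, 8.61 and 8.88 in the knockout, against 9.34, 9.04 and 8.91 in the wild type at its brightest probe set. The groups overlapped, with knockout replicate 2 above wild-type replicate 5. The difference was -0.29 (SE 0.15, 95% interval -0.65 to 0.08, limma adjusted p = 0.515), and -0.16 with wild-type replicate 1 left out. The other probe sets of Gria2 differed by 0.17 and -0.31, so they did not share 1 direction.

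Gria1, a pore-forming subunit like the others, differed by -0.29 and -0.18 at its 2 probe sets. Its brightest one read 6.998, 6.32 and 6.31 in the knockout, against 7.22, 6.95 and 6.34 in the wild type: knockout replicate 2 lay with wild-type replicates 1 and 4, and the other arrays lay together. The difference at this probe set was -0.10 with wild-type replicate 1 left out. Gria3 read 6.37, 5.90 and 6.11 in the knockout, against 6.19, 5.88 and 5.86 in the wild type (difference 0.15, SE 0.15, or 0.26 without wild-type replicate 1), and its second probe set differed by -0.03. Gria4 read 7.78 on wild-type replicate 1 and 7.11 to 7.37 on all others, and its difference of -0.18 was 0.01 without that array.

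Among the kainate subunits, Grik1, Grik2 and Grik3 form channels by themselves, while Grik4 and Grik5 act only as their partners. Grik1 read 5.12, 4.70 and 5.13 in the knockout, against 4.78, 4.73 and 4.62 in the wild type. Knockout replicates 2 and 5 were above every wild-type array and replicate 4 lay among them. The difference was 0.27 (SE 0.14, 95% interval -0.06 to 0.61, limma adjusted p = 0.513), and 0.31 without wild-type replicate 1.

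Grik2 gave different pictures at its 2 probe sets. The brighter one read 7.08, 7.06 and 7.11 in the knockout, against 7.18, 6.94 and 6.96 in the wild type, and the groups overlapped. Its difference was 0.06 (SE 0.09, limma adjusted p = 0.773), or 0.14 without wild-type replicate 1. The dimmer one was singled out after its values were seen, as the member probe set of lowest p: it read 5.24, 5.21 and 5.56 in the knockout, against 4.12, 4.72 and 4.66 in the wild type.

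At this second Grik2 probe set every knockout value exceeded every wild-type value, with a difference of 0.83 (1.78-fold, SE 0.19, limma unadjusted p = 0.00498, adjusted p = 0.511). It was the only one of the 44 kept member probe sets with an unadjusted p below 0.05 in limma, against 9.40% of all 22565 kept probe sets (4.98% higher in the knockout). The difference was 0.65 without wild-type replicate 1, the array with the lowest value, and lay between 0.65 and 0.99 over the alternatives tried. On wild-type replicate 1 the brighter Grik2 probe set had its highest value and the dimmer one its lowest.

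Grik3 was steady over the arrays, at 9.37, 9.30 and 9.45 in the knockout, against 9.51, 9.42 and 9.37 in the wild type (difference -0.06, 95% interval -0.25 to 0.13), and differed by -0.02 when wild-type replicate 1 was left out. Grik5 differed by -0.06 (95% interval -0.39 to 0.28), and by 0.06 without that array. Grik4 read 3.77, 3.79 and 3.81 in the knockout, against 4.36, 3.46 and 4.11 in the wild type, so the wild-type arrays lay on both sides of the knockout ones and the difference of -0.19 was smaller than the wild-type SD of 0.46. Without wild-type replicate 1 the Grik4 difference was 0.0045.

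Of the NMDA subunits, Grin2b binds glutamate and is the main partner of Grin1 in the embryonic rodent forebrain, and Grin3a lowers the calcium permeability of the channel. Grin3a read 4.12, 4.12 and 4.20 in the knockout, against 5.35, 4.07 and 4.36 in the wild type. Wild-type replicate 1 stood alone, and the other 5 arrays lay between 4.07 and 4.36. The difference was -0.45 (SE 0.33, limma adjusted p = 0.582), and -0.07 without wild-type replicate 1.

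All 3 probe sets of Grin3a were lower in the knockout by their means, from -0.45 to -0.20. At the dimmest, named after its values were seen, the groups did not overlap (3.58, 3.44 and 3.43 in the knockout, against 4.29, 3.62 and 3.58 in the wild type), with a difference of -0.35, or -0.12 without wild-type replicate 1. Grin2b read 6.51, 5.21 and 5.95 in the knockout, against 6.48, 6.46 and 6.02 in the wild type (difference -0.43, SE 0.34, limma adjusted p = 0.606). Single knockout arrays set its size, since it was -0.74 without knockout replicate 2 and -0.09 without knockout replicate 4. The knockout arrays spanned the whole range of that probe set, and the second kept one differed by 0.18.

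The metabotropic receptors Grm3 and Grm5 differed widely between arrays of 1 genotype. Grm3, which with Grm2 lowers cyclic AMP, read 4.46, 3.50 and 3.56 in the knockout, against 5.04, 4.41 and 3.89 in the wild type. Knockout replicate 2 lay above wild-type replicates 4 and 5. The difference was -0.61 (1.52-fold lower, SE 0.38, 95% interval -1.55 to 0.33, limma adjusted p = 0.551), -0.31 when wild-type replicate 1 was left out, and -0.94 without knockout replicate 2 and wild-type replicate 4.

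Grm5, which raises intracellular calcium, read 5.96, 5.23 and 5.68 in the knockout, against 6.58, 5.59 and 3.92 in the wild type. The wild-type arrays enclosed all knockout arrays. The difference was 0.26 (SE 0.67), 0.87 with wild-type replicate 1 left out and -0.46 with replicate 5 of that genotype left out, so each of these arrays decided its size or sign. Grm7, a presynaptic receptor, read 5.60, 5.59 and 5.65 in the knockout, against 5.72, 5.63 and 5.11 in the wild type (difference 0.13, SE 0.17), and differed by 0.24 without wild-type replicate 1 and by -0.06 without replicate 5. Grm4 differed by -0.12 and Grm2 by -0.09, both at probe sets with repeated values. Without wild-type replicate 1, Grm2 turned to 0.09 and Grm4 was -0.10.

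**Figure D3:**
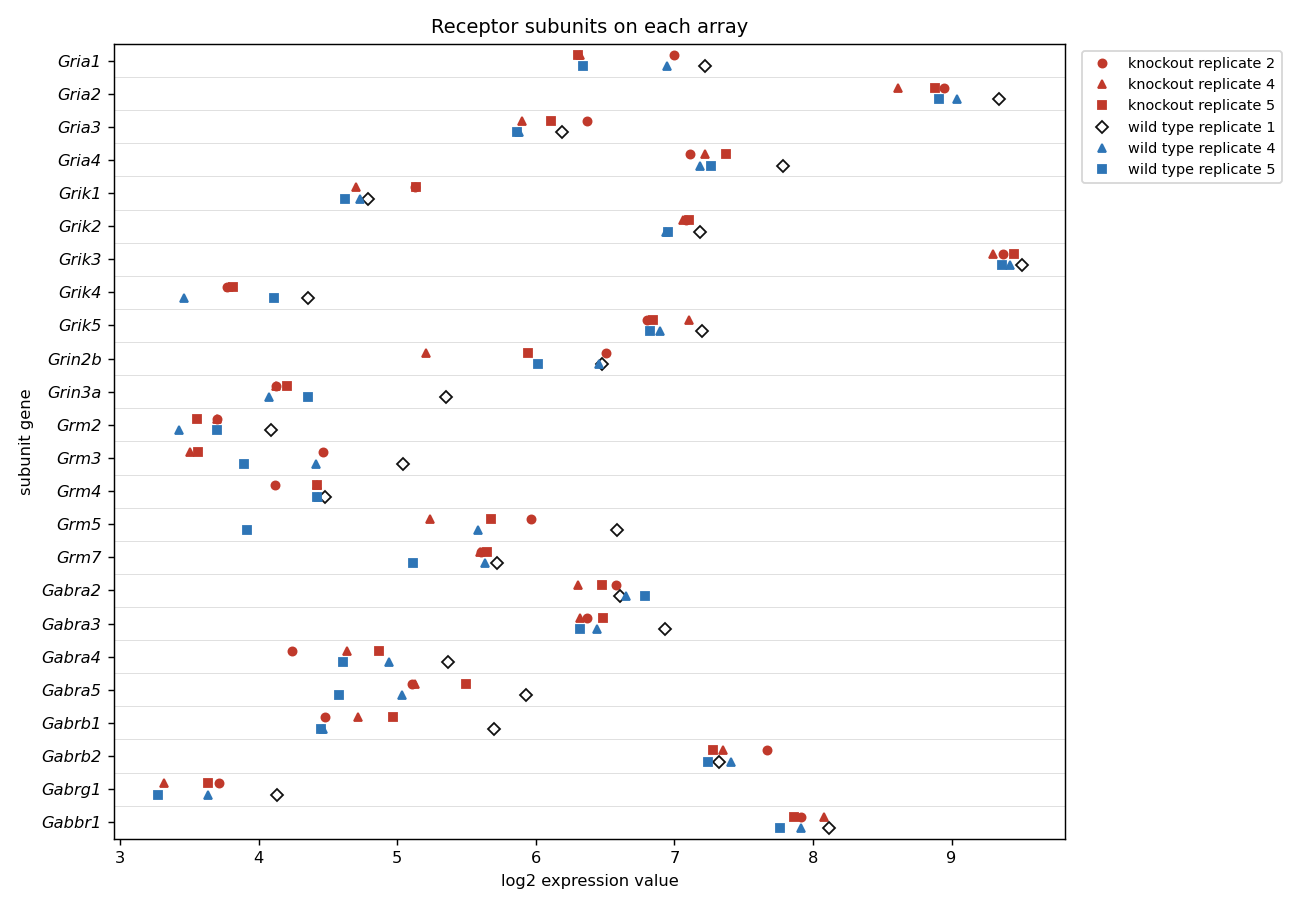
Log2 expression value of each of the 24 subunit genes on each array at the brightest kept probe set, knockout arrays in red above wild-type arrays in blue, with wild-type replicate 1 as an open diamond. The open diamond is the highest point for 19 of the 24 genes, among them Grin3a, Grm5, Gabra5 and Gabrb1.

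Among the GABA-A alpha subunits, which shape the affinity and location of the receptor, Gabra2 was the 1 gene whose groups did not overlap. It read 6.58, 6.30 and 6.47 in the knockout, against 6.60, 6.65 and 6.79 in the wild type. The gap between the groups was narrow, with knockout replicate 2 just below wild-type replicate 1. The difference was -0.23 (1.17-fold lower, SE 0.10, 95% interval -0.47 to 0.02, limma adjusted p = 0.511). Leaving out wild-type replicate 1 gave -0.27.

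The other kept probe sets of Gabra2 differed by 0.01 and -0.06. Gabra4 read 4.24, 4.64 and 4.87 in the knockout, against 5.36, 4.94 and 4.61 in the wild type, and the groups overlapped through wild-type replicate 5. The difference was -0.39 (SE 0.24, limma adjusted p = 0.551), and -0.19 without wild-type replicate 1. Gabra5, known for receptors outside synapses, read 5.11, 5.13 and 5.49 in the knockout, against 5.93, 5.03 and 4.58 in the wild type. Its difference was 0.06 (SE 0.35), and 0.44 without wild-type replicate 1, which was above all knockout arrays while the other wild-type arrays were below them. Without wild-type replicate 5 it was -0.24. Gabra3 read 6.93 on wild-type replicate 1 and 6.32 to 6.48 on the others, and its difference of -0.18 was 0.01 without that array.

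Of the beta and gamma subunits, Gabrb1 read 4.48, 4.72 and 4.97 in the knockout, against 5.70, 4.46 and 4.45 in the wild type. Wild-type replicate 1 was the highest array and the other 2 wild-type arrays were below every knockout array. The difference was -0.15 (SE 0.37, limma adjusted p = 0.874), and 0.27 without wild-type replicate 1. Gabrg1 differed by -0.12 and by 0.10 without that array.

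Gabrb2 had 5 kept probe sets, whose differences ran from -0.38 to 0.38. The brightest read 7.67, 7.35 and 7.28 in the knockout, against 7.32, 7.41 and 7.24 in the wild type (difference 0.11, SE 0.12, limma adjusted p = 0.695). At the next brightest, named after its values were seen, the groups did not overlap and the direction was the opposite, with 6.99, 7.05 and 7.06 in the knockout, against 7.83, 7.22 and 7.17 in the wild type (difference -0.38, or -0.17 without wild-type replicate 1). Gabbr1, the subunit of the GABA-B receptor that binds GABA, likewise differed between probe sets.

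The brightest Gabbr1 probe set read 7.91, 8.08 and 7.86 in the knockout, against 8.11, 7.91 and 7.76 in the wild type (difference 0.02, SE 0.12, 95% interval -0.26 to 0.30, limma adjusted p = 0.954), and its difference was 0.11 without wild-type replicate 1. The dimmest kept one, named after its values were seen, read 6.56, 6.70 and 6.38 in the knockout, against 5.66, 6.52 and 6.02 in the wild type (difference 0.48, SE 0.23, limma adjusted p = 0.513), or 0.28 without wild-type replicate 1. Wild-type replicate 1 had the highest value at the first and the lowest at the dimmest, as it had at the Grik2 pair. Of the 44 kept member probe sets, groups did not overlap for 1 that was higher (Grik2) and 3 that were lower (Grin3a, Gabra2 and Gabrb2), against 8.96% higher and 7.25% lower over all kept probe sets.

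**Figure D4:**
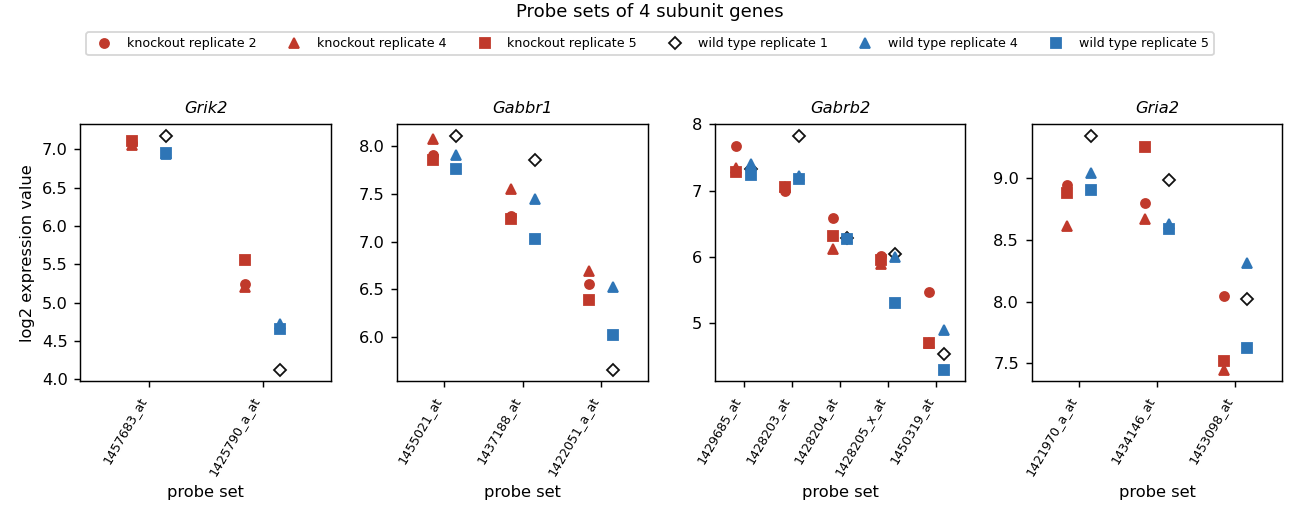
Log2 expression values at every kept probe set of Grik2, Gabbr1, Gabrb2 and Gria2, knockout arrays in red left of wild-type arrays, wild-type replicate 1 as an open diamond. Within Grik2 and within Gabbr1 the open diamond is the highest point at the brightest probe set and the lowest at the dimmest.

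The start regions of 4 of these genes are shown as a description, and no result above rests on them. Gabra2 is the 1 gene with separate groups, and Grik2 holds the member probe set of lowest p. Gabra4 and Gabrb1 are adjacent genes on chromosome 5. Both were highest on wild-type replicate 1, as were 19 of all 24 subunit genes. Gabrg1 and Gabra2 are adjacent on the same chromosome, and Gabrg3 and Gabra5 on chromosome 7. Each window runs from 250 bases before to 50 bases after the start of the gene, 5′ to 3′ on the gene's strand, from RefSeq on GRCm38.p6. Gabra2 lies at chr5:71095800-71096099 (minus strand), Gabra4 at chr5:71658259-71658558 (minus strand), Gabrb1 at chr5:71657671-71657970 (plus strand) and Grik2 at chr10:49788705-49789004 (minus strand). Capitals mark the E-box CANNTG, the class of site that basic helix-loop-helix factors bind, which reads the same on both strands.
Gabra2: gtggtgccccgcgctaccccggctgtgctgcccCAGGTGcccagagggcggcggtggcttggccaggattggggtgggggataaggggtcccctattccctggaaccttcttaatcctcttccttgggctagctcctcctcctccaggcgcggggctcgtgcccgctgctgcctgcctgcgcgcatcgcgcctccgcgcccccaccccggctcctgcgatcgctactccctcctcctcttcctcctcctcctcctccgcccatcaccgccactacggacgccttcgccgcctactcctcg
Gabra4: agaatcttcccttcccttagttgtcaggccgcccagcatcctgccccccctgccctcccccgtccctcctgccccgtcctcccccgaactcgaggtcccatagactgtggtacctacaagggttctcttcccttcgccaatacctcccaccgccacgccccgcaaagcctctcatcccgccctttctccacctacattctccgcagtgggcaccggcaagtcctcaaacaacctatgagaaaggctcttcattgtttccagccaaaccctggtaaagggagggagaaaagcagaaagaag
Gabrb1: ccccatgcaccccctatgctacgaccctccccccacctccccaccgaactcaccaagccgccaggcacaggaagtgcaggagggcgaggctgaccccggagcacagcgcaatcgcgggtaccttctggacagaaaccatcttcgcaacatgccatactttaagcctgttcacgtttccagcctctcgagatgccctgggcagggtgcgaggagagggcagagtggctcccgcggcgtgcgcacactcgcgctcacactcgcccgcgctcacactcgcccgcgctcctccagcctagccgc
Grik2: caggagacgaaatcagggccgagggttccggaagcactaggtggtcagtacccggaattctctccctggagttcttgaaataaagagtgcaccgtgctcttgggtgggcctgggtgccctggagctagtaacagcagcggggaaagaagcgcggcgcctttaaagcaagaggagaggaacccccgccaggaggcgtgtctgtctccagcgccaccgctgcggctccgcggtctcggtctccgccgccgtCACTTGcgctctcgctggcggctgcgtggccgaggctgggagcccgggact

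The windows of Gabra4 and Gabrb1 face each other on opposite strands with 288 bases between them. Neither held a CANNTG, while Gabra2 and Grik2 held 1 each. The table had 30 windows for 23 of the 31 genes, and 12 of them (40%) held the letters, against 72.3% of 32851 windows of all genes. Windows of 1 gene can overlap, and a match of letters is a description of the sequence only.

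Many of the subunits had their highest level on wild-type replicate 1. This array had the highest value for 19 of the 24 genes (79.2%) and the lowest for 0, where it had the highest for 31.4% and the lowest for 26.9% of all kept genes. The median gene lay 0.47 above its mean of the other 5 arrays, against 0.0035 over all kept genes. Grm5 (1.31), Grin3a (1.18), Gabrb1 (1.08) and Grm3 (1.08) were farthest above that mean, while Gabra2 (0.05), Gabrb2 (-0.07) and Grik1 (-0.08) lay close to it. Gria3 (0.17) and Grin2b (0.45) were above it but highest on another array.

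Markers of neurons and of dividing cells moved with the same array. The mean level of 20 neuronal genes, all above the floor, was 9.76 to 9.77 on the knockout arrays, against 9.77 to 10.05 on the wild-type arrays, with the highest on replicate 1. The mean level of 15 cell cycle genes, all above the floor, was 9.32 to 9.40 on the knockout arrays, against 9.11 to 9.46 on the wild-type arrays, with the lowest on replicate 1. The mean level of the subunits was 5.73 to 5.92 on the knockout arrays, against 5.69 to 6.31 on the wild-type arrays. By sign, 17 of the 20 neuronal genes were lower in the knockout, against 50.6% of all kept genes. Without wild-type replicate 1, 13 of these neuronal genes were lower. Of the 15 cell cycle genes, 6 were lower over all arrays and 11 without that array. The part of either marker list in the subunit values was not tested.

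Other marker lists differed between arrays in other ways. The mean of 9 thalamic genes was 7.06 to 7.52 in the knockout, against 7.77 to 8.07 in the wild type. Of the 9, 8 were lower in the knockout, against 50.6% of all kept genes. The mean of 3 meningeal and mesenchymal genes was 5.79 to 7.20 in the knockout, against 5.57 to 6.31 in the wild type, with the highest on knockout replicate 2, and Dcn, Twist1 and Alx4 of that list were at the floor on all arrays. Col3a1 of that list read 8.10, 4.04 and 4.09 in the knockout, against 6.20, 4.35 and 4.67 in the wild type. Pdgfrb read 7.33, 7.19 and 7.30 in the knockout, against 6.92, 6.73 and 6.93 in the wild type. Its groups did not overlap, as for 8.45% of all kept genes that were higher in the knockout without overlap. Foxd1 read 6.15, 6.15 and 6.39 in the knockout, against 5.81, 5.64 and 6.52 in the wild type.

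Of 8 pallial genes, 6 were above the floor on all arrays and Emx1 and Slc17a7 were at it. The mean of those 6 was 6.88 to 7.15 in the knockout, against 6.70 to 6.93 in the wild type. Tbr1 and Neurod6, transcription factors of cortical excitatory neurons, were higher on every knockout array than on any wild-type array. These pallial genes of lowest p differed by 0.45 (SE 0.11) and 0.52 (SE 0.13), each with a limma adjusted p of 0.511. Over all kept genes, 8.45% were higher in the knockout without overlap. The groups overlapped for Neurod2 (0.19), Fezf2 (0.15), Emx2 (0.0073) and Eomes (-0.08). Of 8 endothelial and pericyte genes, 7 were above the floor and Cdh5 was at it, and the means of those 7 were 5.16 to 5.35 in the knockout, against 5.14 to 5.37 in the wild type. Of 8 microglial genes, 4 were above the floor and Aif1, Ptprc, Fcer1g and Trem2 were at it, and the means of those 4 were 4.24 to 4.36 in the knockout, against 4.08 to 4.29 in the wild type. Of 6 oligodendrocyte precursor genes, 4 were above the floor, Olig1 and Olig2 among them, and Sox10 and Cspg4 were at it. Ttr, which marks the choroid plexus, read 9.99, 6.42 and 4.85 in the knockout, against 8.36, 10.96 and 3.46 in the wild type. Its highest values were on knockout replicate 2 and wild-type replicate 4. Otx2 of the same list read 8.21, 8.47 and 8.10 in the knockout, against 8.01, 7.91 and 8.34 in the wild type. It was lowest on wild-type replicate 4, where Ttr was highest. Kl and Folr1 of that list were at the floor on all arrays, and Clic6 was above it on only 1. The mean of 5 blood genes was 8.28 to 8.79 in the knockout, against 8.01 to 8.74 in the wild type, with the lowest on wild-type replicate 1. The part of these lists in the subunit values was not tested.

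**Figure D5:**
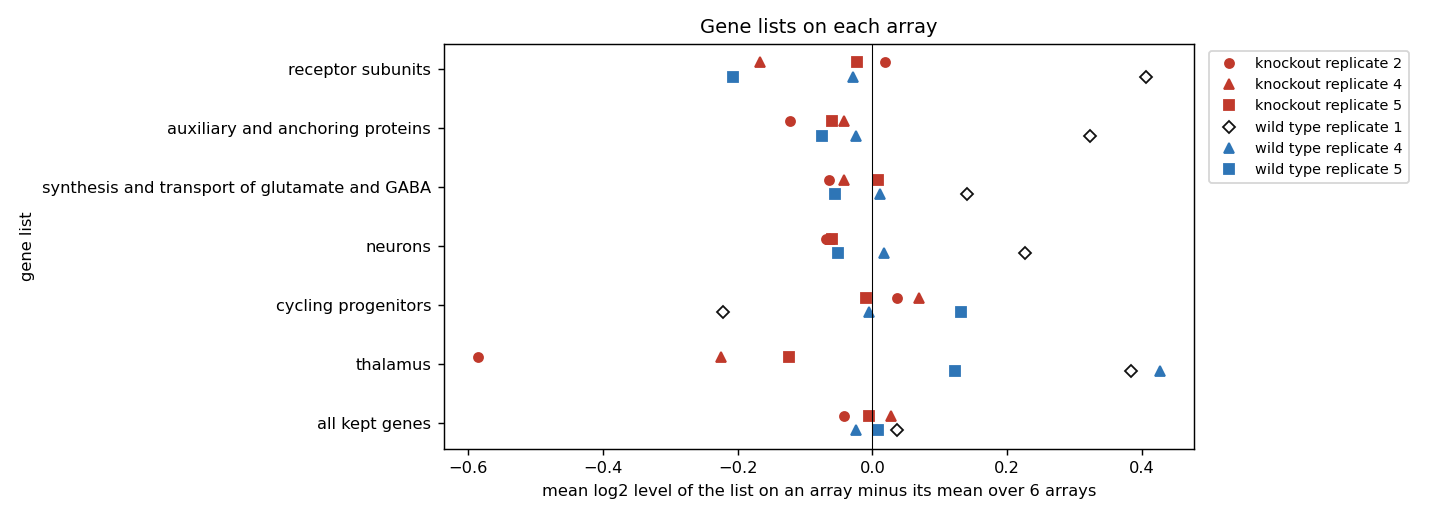
Mean log2 level of each gene list on each array minus the mean of that list over the 6 arrays, knockout in red above wild type, with wild-type replicate 1 as an open diamond. The diamond lies farthest right for the receptor subunits, their auxiliary proteins, transmitter synthesis and transport genes and neuronal genes. It lies farthest right for all kept genes as well, at a mean of 7.11 against 7.03 to 7.10 on the other arrays. For the cell cycle genes it lies farthest left.

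Other genes of the same signalling machinery were read from 4 lists. Of 14 further receptor subunits with a probe set, 11 were at the floor on all arrays, among them the GABA-A subunits Gabra6 and Gabrd, and 2 were above it on all 6. These were the glycine receptor genes Glra2 and Glrb. Glra2, the embryonic alpha subunit, read 6.91, 6.99 and 7.23 in the knockout, against 7.87, 7.33 and 6.76 in the wild type (difference -0.28, SE 0.28), and differed by 4.57e-05 without wild-type replicate 1. Glrb, which anchors glycine receptors, differed by -0.05, and by 0.06 without that array.

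Auxiliary and anchoring proteins, which traffic receptors and hold them at synapses, had 29 kept genes. Of them, 24 were lower and 5 higher in the knockout (median -0.11), against 50.6% lower over all kept genes, and 0 passed the adjusted threshold. Groups did not overlap for 6 lower genes and 0 higher ones, against 7.96% and 8.45% over all kept genes. Homer2, a scaffold of metabotropic receptors, was the 1 gene with an unadjusted limma p below 0.05, against 7.90% of all kept genes. It read 7.75, 7.54 and 7.26 in the knockout, against 8.16, 7.93 and 7.98 in the wild type, without overlap (difference -0.51, SE 0.14, adjusted p = 0.511). Its difference lay between -0.63 and -0.38 with any 1 array left out, and was -0.24 with the mean of its kept probe sets.

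Nlgn2, an adhesion protein of inhibitory synapses, differed by -0.54, with all knockout arrays below all wild-type arrays, and by -0.27 without wild-type replicate 1. The AMPA receptor partners Shisa9 and Shisa7 differed by -0.65 and -0.48, and by -0.39 and -0.21 without that array. On wild-type replicate 1, 22 of the 29 genes had their highest value. Without it 19 were lower and 10 higher, with a median of -0.03.

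Genes of glutamate and GABA synthesis and transport had 12 kept members, 8 lower and 4 higher (median -0.04). Of all kept genes 50.6% were lower. In limma 0 passed either threshold, where 7.90% of all kept genes had an unadjusted p below 0.05. Slc1a4, a neutral amino acid transporter, read 7.12, 7.12 and 7.06 in the knockout, against 7.01, 6.89 and 6.92 in the wild type, without overlap. Over all kept genes, 8.45% were higher in the knockout without overlap. The Slc1a4 difference was 0.16 (SE 0.07, limma adjusted p = 0.511), and 0.039 with the mean of its kept probe sets. The glutamate transporters Slc1a1 and Slc1a2 differed by -0.25 and -0.37 and the vesicular GABA transporter Slc32a1 by -0.24. Slc32a1 differed by -0.06 without wild-type replicate 1.

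Of the chloride transporters, which set whether GABA depolarises, Slc12a2 brings chloride into the cell and Slc12a5 exports it. Slc12a2 read 8.42, 8.38 and 8.29 in the knockout, against 7.83, 8.31 and 8.27 in the wild type (difference 0.22, SE 0.15). With the mean of its kept probe sets the Slc12a2 difference was larger, at 0.55. At the brightest probe set alone it was 0.07 without wild-type replicate 1, the lowest array there. Slc12a5 read 7.78, 7.73 and 7.77 in the knockout, against 8.33, 7.85 and 7.55 in the wild type (difference -0.15, SE 0.20), and differed by 0.06 without that array, its highest. Slc12a7 differed by -0.05. None of the 3 passed (smallest limma adjusted p = 0.556).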

How the data were processed

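Affymetrix MOE430 2.0 arrays were hybridised with cRNA from 6 ug of total RNA, per the labels' protocols. Each deposited value is a log2 expression value of 1 probe set. Per the series design text, the authors made these with GCOS, MAS 5.0 and GCRMA, quantile normalization included; no software version is stated. GCRMA sets dim probe sets to a floor, which compresses their differences. The number of arrays limits the precision. The table held 45101 probe sets, 64 of them controls. By the platform annotation 34945 had 1 symbol, 932 several and 9160 none, and 0 symbols were updated through the RefSeq gene table.

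A probe set was kept if it exceeded the array median on 3 or more of the 6 arrays, whatever their genotype (22565, of 10630 named genes). Genotypes were compared with limma 3.58.1 in R 4.3.3 (lmFit, eBayes, two-sided, no block), and p-values were adjusted by Benjamini-Hochberg across all kept probe sets. The floor is the 5th percentile of an array. Named were the 8 member genes of lowest p per direction, the lowest p of each receptor class and up to 4 genes of each related list; further members and probe sets were named after their values were seen. The members and lists were chosen with earlier results of these data known. Alternatives were other filters, scalings and variance models, array weights, a replicate block, means of probe sets and arrays left out. The limma step was also checked on simulated data with independent noise, built from the mean levels and variances of the main fit.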

Additional observations from a re-analysis of the deposited data

How the results depend on the processing

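In every alternative tried, 0 subunit genes passed an adjusted p of 0.05 in limma (smallest adjusted p = 0.237, without wild-type replicate 4). The count of subunit genes at an unadjusted p below 0.05, 0 as reported, was 1 with array weights, 1 with the mean of kept probe sets, 2 with the replicate block and 1 with the close pair, knockout replicate 2 and wild-type replicate 4, both left out. It ran from 0 to 3 with any 1 array left out, the 3 being without knockout replicate 2. The count of kept probe sets at that threshold, 2121 as reported, was 3491 with array weights and 3295 with that pair of arrays left out, and ran from 1111 (without knockout replicate 5) to 3489 (without wild-type replicate 4). The median subunit difference ran from -0.21 to 0.03 with any 1 array left out, and was -0.01 with array weights and 0.02 with the replicate block. Some single differences changed sign. With array weights, Glra2 was 0.077, Glrb 0.045 and Slc12a5 0.061. The replicate block was the replicate number, and numbers 1 and 2 each occur on 1 array. Its differences therefore rest on replicates 4 and 5 of both genotypes and leave out wild-type replicate 1 as well. With this block, Gabrb2 was -0.0079, Gabra3 0.022, Glra2 0.067, Glrb 0.059, Slc32a1 0.0094 and Slc12a5 0.053. With the mean of kept probe sets, Glrb was 0.0061 and Slc1a1 0.0090. Leaving out the same pair of arrays put Gria3 at -0.020. With any 1 array left out, Gria3 ran up to 0.26, Gabrb2 from -0.0074 to 0.19, Grm7 from -0.062 to 0.24, Grm5 from -0.46 to 0.87, Gabra5 from -0.24 to 0.44, Gabbr1 from -0.063 to 0.11, Gabra3 from -0.30 to 0.0097, Glra2 from -0.56 to 4.57e-05, Glrb from -0.12 to 0.062, Slc12a5 from -0.33 to 0.063 and Slc12a7 up to 0.050, and Slc12a7 was -0.15 without the pair. The causes were not tested. No label says that replicate numbers shared across genotypes pair the arrays. Deviations from the group means correlated at -0.29 for number 4 and 0.32 for number 5. They correlated at 0.38 between knockout replicate 2 and wild-type replicate 4. These correlations cannot decide on pairing, since deviations from a mean of 3 arrays offset each other. Dim probe sets near the floor limit what can be said of Grin2a, Grin2c, Grin2d and Gabrg3.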
